A study of Homo sapiens with 5 samples.

Results

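Colonocyte identity was followed through 10 genes, namely the transcription factors CDX1 and CDX2, the structural genes KRT20 and VIL1, the surface genes CDH17, LGALS4, CEACAM5 and CEACAM6, and the small-protein genes PHGR1 and FXYD3. They were taken by symbol from a fixed list, which was chosen with earlier results of these data known. All 10 were found among the 26364 genes of each file. RNA was measured by mRNA sequencing in 5 libraries of tumours grown from HT-29, an established human colon cancer cell line, placed under the skin of female NOD SCID mice bought at 5 weeks of age. This strain lacks T and B cells, and the mice were kept on the study foods for 2 weeks, while the design text also speaks of an experiment of 3 weeks. There was 1 library from food without methionine, tryptophan and niacin (the combined omission), 1 from food without tryptophan and niacin, 2 from food without methionine and 1 from normal food. The line, the host strain and the graft site were shared by all groups. Cages were assigned by food, so food and cage cannot be told apart. The labels do not say whether the methionine-free pair came from separate mice. Apart from those of an additive model given below, p-values therefore measure only the spread of that pair, pooled over genes. That spread may be technical.

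The colon surface is renewed from crypts. Cells leaving the crypt base stop dividing and switch on the genes of a mature colonocyte, among them keratin 20, the actin bundler villin of the brush border, and adhesion and lectin proteins of the cell surface. The homeobox factors CDX1 and CDX2 set intestinal identity and activate many of these genes. HT-29 cells are known for holding a mostly undifferentiated state from which they can be driven toward absorptive or goblet-like cells.

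Library totals lay between 433930 and 1088084 counts, which is shallow. Levels are given as CPM, counts scaled to library size with edgeR's TMM factors, in which 1 count was worth between 0.909 CPM (normal food) and 2.27 CPM (combined omission). Methionine-free replicate 2 stood apart from replicate 1 by transcript length: genes with short transcripts (median 1523 bases) had a median log2 difference, replicate 2 minus replicate 1, of 0.35, and those with long ones (median 6847.5 bases) one of -0.36. The combined-omission and normal libraries bear a shorter style of title than the other 3. If that style marks a separate round of work, comparisons across it cannot tell food and round apart. In these bulk samples fewer colonocyte-like cells and less RNA per cell cannot be told apart. Markers of other cell types were scarce, but reads were counted on human genes and the host was a mouse. These low levels therefore do not measure how much host tissue the tumours held. At 0 in every library were 5 of 7 fibroblast, 4 of 5 endothelial and 4 of 6 keratinocyte genes. The adipocyte and enteroendocrine lists summed to at most 2.8 and 5.38 CPM. Of 7 leukocyte genes, 5 were at 0, including the pan-leukocyte gene PTPRC, and the list's summed level of 2018 to 3702 CPM came almost all from LYZ, the lysozyme gene that Paneth cells also express.

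All 10 genes had counts in each of the 5 libraries, and the levels were dominated by a pair of them. LGALS4, which encodes the gut lectin galectin-4, and KRT20 together supplied between 80.4% and 86.2% of the members' counts in each library. The summed level of all 10 was 2630 CPM in the combined omission, 2210 CPM without tryptophan and niacin, 2527 and 3247 CPM in the methionine-free pair, and 2779 CPM on normal food. The tryptophan/niacin-free library was the lowest, but the methionine-free pair differed from each other by more than it did from the combined omission.

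Per kilobase of transcript the levels spanned a wide range, and only part of their order was clear. LGALS4 averaged 923 ± 191 CPM per kilobase over the libraries (SD, n = 5) and KRT20 463 ± 65.1, and their ranges did not overlap. FXYD3 (81.4 ± 30.7), PHGR1 (47.3 ± 30) and VIL1 (33.9 ± 3.13) followed, and the ranges of neighbours among these overlapped. CEACAM6, a cell adhesion protein of the carcinoembryonic antigen family, averaged 13.7 ± 4.6. Its range of 8.22 to 21 overlapped those of PHGR1, CDX1, CEACAM5 and CDH17. CDX1 (6.07 ± 2.87), CEACAM5 (5.88 ± 3.5) and CDH17 (5.84 ± 2.13) could not be put in order. CDX2 had the lowest mean, 2.39 ± 1.02, but its range of 0.884 to 3.59 overlapped those of CDX1 (1.78 to 9.02) and CEACAM5 (2.21 to 11.1). These SDs run across all diets. The order rests on 1 RefSeq-linked transcript per gene, whose length was 436 bases for PHGR1 and 6531 bases for VIL1, and another isoform would shift it.

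**Figure D1:**
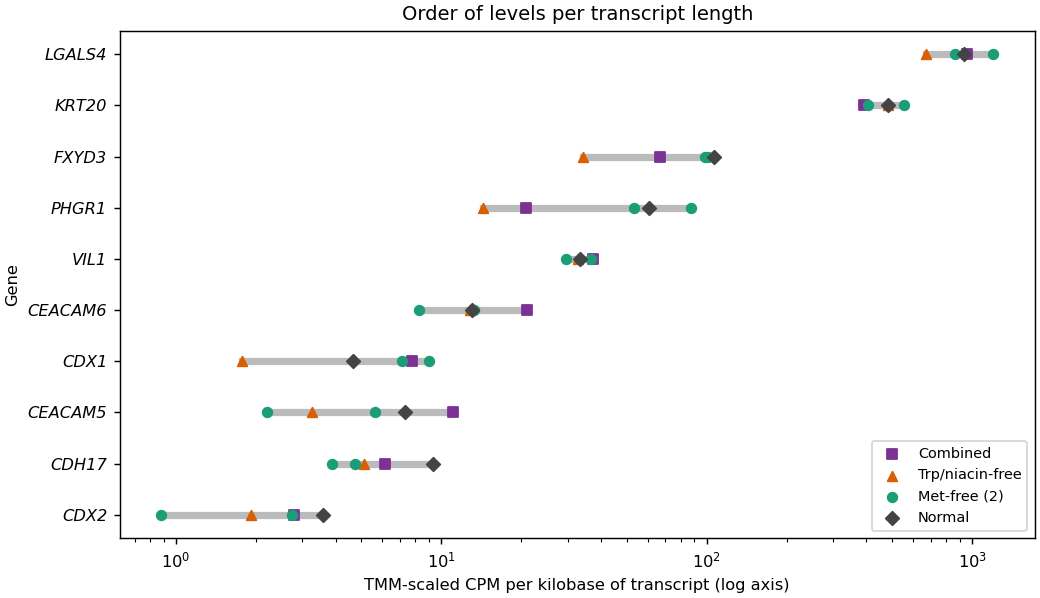
Level of each gene per kilobase of transcript (log axis, TMM-scaled CPM per kilobase) in the 5 libraries, with a grey bar from the lowest to the highest. LGALS4 and KRT20 lie above all others in every library, and VIL1 has the narrowest bar, from 29.6 to 37.2.

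The CDX factors were at the edge of detection. CDX1 had 6 counts in the combined omission, 2 without tryptophan and niacin, 7 and 10 in the methionine-free pair, and 9 on normal food. CDX2 had 5 counts in the combined omission, 5 without tryptophan and niacin, 2 and 7 without methionine, and 16 on normal food. Neither gene passed the filter on low counts, so both were outside the test across genes, and the counting intervals of all libraries overlapped. Fitted without that filter, CDX1 without tryptophan and niacin had a log2 fold change of -2.12 against the methionine-free pair (SE 1.02, edgeR adjusted p = 1). The ratio of CDX1 without tryptophan and niacin to normal food was 0.38 with an exact 95% interval of 0.0399 to 1.83, and that of CDX2 was 0.534 (0.153 to 1.53). Against normal food a difference of either factor was not detectable at this depth. HNF4A, another transcription factor of the gut epithelium, was measured at 166 CPM in the combined omission, 143 CPM without tryptophan and niacin, 170 and 170 CPM without methionine, and 145 CPM on normal food.

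The structural genes were the steadiest. KRT20, the keratin filament of mature colonocytes, stood at 681 CPM in the combined omission, 841 CPM without tryptophan and niacin, 704 and 958 CPM in the methionine-free pair, and 835 CPM on normal food. The methionine-free pair enclosed the tryptophan/niacin-free and normal libraries, and the combined omission was below all others, with a count ratio to normal food of 0.815 (0.713 to 0.929, counting error only). VIL1, which encodes villin, stood at 243 CPM in the combined omission, 213 CPM without tryptophan and niacin, 240 and 194 CPM without methionine, and 217 CPM on normal food. Its highest library was 1.24-fold above its lowest, the smallest such span of the 10 genes, against 1.44-fold for KRT20 and 6.07-fold for PHGR1. Against normal food the methionine-free log2 fold change was -0.01 for KRT20 (95% interval -1.01 to 1.00) and 0.00 for VIL1 (-0.85 to 0.84). These intervals leave room for a change of up to about 2-fold in either direction.

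LGALS4 was lowest without tryptophan and niacin. It stood at 1464 CPM in the combined omission, 1026 CPM without tryptophan and niacin, 1328 and 1840 CPM without methionine, and 1430 CPM on normal food. The tryptophan/niacin-free interval of 949 to 1107 CPM lay below those of all other libraries, and the count ratio to normal food was 0.717 (0.654 to 0.786, counting error only). The methionine-free replicates differed from each other by about as much, with a ratio of replicate 2 to replicate 1 of 1.39 (1.26 to 1.52), and the normal library lay between them. Against the methionine-free pair the log2 fold change was -0.63 (SE 0.58, edgeR adjusted p = 0.992).

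CDH17, the liver-intestine cadherin, was highest on normal food. It stood at 22.7 CPM in the combined omission, 18.8 CPM without tryptophan and niacin, 14.3 and 17.4 CPM without methionine, and 34.5 CPM on normal food. The methionine-free log2 fold change was -1.11 (SE 0.55), with an unadjusted p = 0.0445 and an adjusted p = 0.638 by edgeR's quasi-likelihood test. The combined omission gave a count ratio to normal food of 0.657 (0.292 to 1.34) and the tryptophan/niacin-free library one of 0.545 (0.259 to 1.06), both including 1. The counting interval on normal food, 24.4 to 47.4 CPM, overlapped that of each other library. CDH17 reached the count filter (16.3 CPM before TMM scaling) in the combined-omission, tryptophan/niacin-free and normal libraries and in neither methionine-free one, so a lower methionine-free level was favoured by its being tested.

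**Figure D2:**
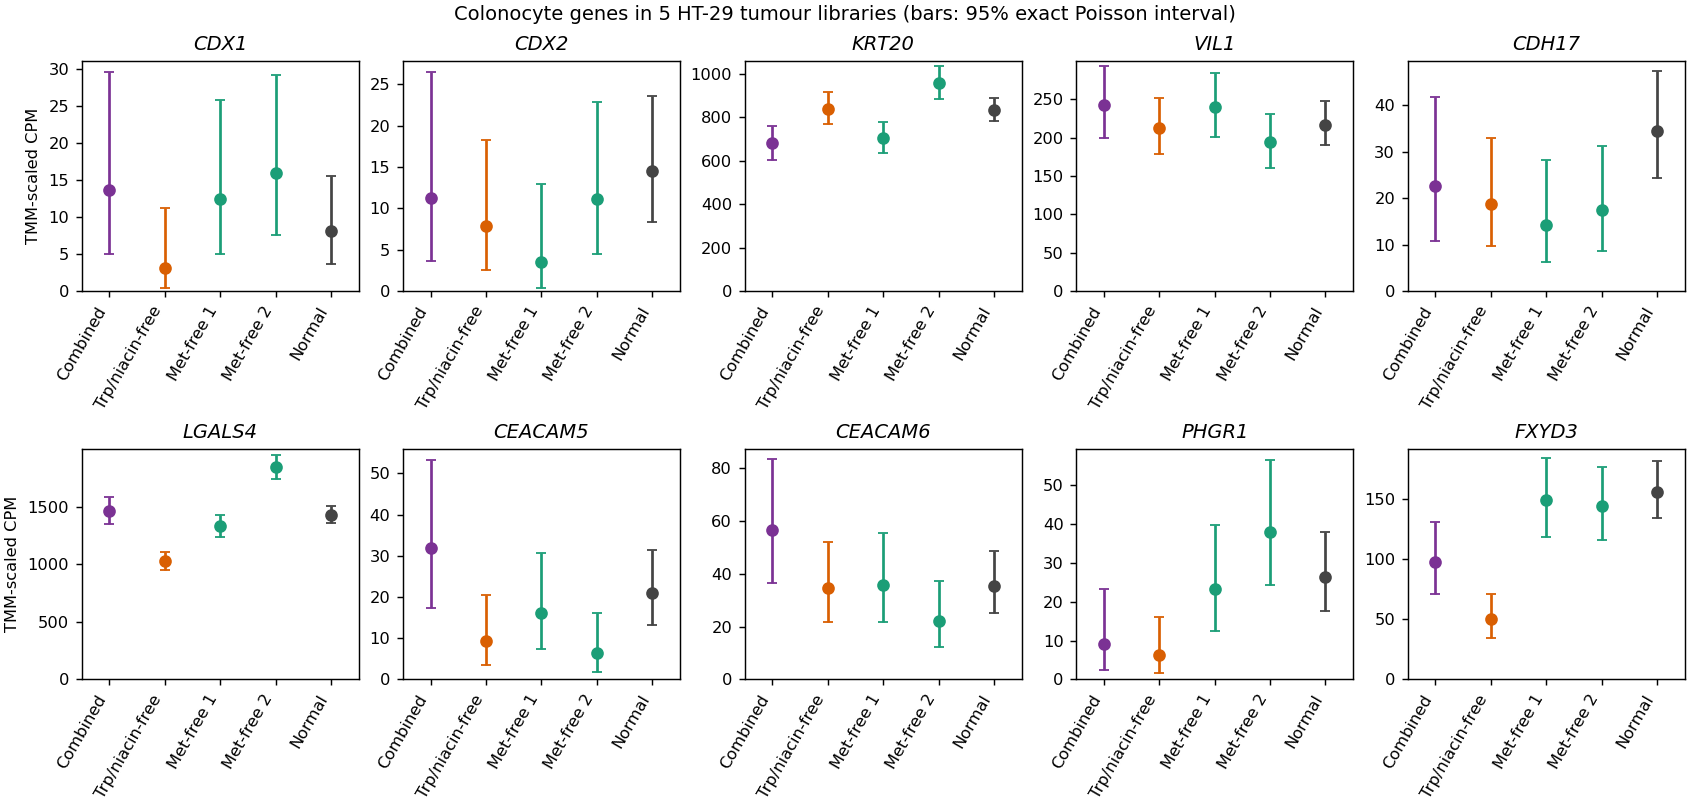
TMM-scaled CPM of the 10 genes in each library, with 95% exact Poisson intervals, on axes that start at 0. FXYD3 and PHGR1 are lowest in the tryptophan/niacin-free library (50.2 and 6.27 CPM), and CEACAM5 and CEACAM6 are highest in the combined omission (31.8 and 56.7 CPM).

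CEACAM5 and CEACAM6 are neighbours on chromosome 19 and come from 1 gene family. CEACAM5 encodes the carcinoembryonic antigen used as a serum marker of colon cancer. Both genes are shown here with their promoters because their levels were highest and lowest in the same libraries, and the promoter of FXYD3, described next, is shown beside them. The sequences come from RefSeq on GRCh38.p14, from 250 bases before to 50 bases after the start. Windows of 6 of the 10 genes were used, and VIL1, CDX1 and PHGR1 had no entry. CDH17 was left out because entries of its chromosome were not used. Capitals mark letters of motifs searched on both strands: the E-box CACGTG, the GC box GGGCGG, the TATA box TATAAA, the GATA motif AGATAA and the CDX motif TTTATNG, of which TATAAA can overlap TTTATNG.
CEACAM5 promoter, chr19:41708376-41708675, plus strand: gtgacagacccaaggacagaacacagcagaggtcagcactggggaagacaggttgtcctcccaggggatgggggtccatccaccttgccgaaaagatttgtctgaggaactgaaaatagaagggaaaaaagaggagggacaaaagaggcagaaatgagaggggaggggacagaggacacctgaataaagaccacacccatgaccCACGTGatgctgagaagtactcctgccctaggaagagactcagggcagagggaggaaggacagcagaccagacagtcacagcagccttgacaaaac
CEACAM6 promoter, chr19:41755280-41755579, plus strand: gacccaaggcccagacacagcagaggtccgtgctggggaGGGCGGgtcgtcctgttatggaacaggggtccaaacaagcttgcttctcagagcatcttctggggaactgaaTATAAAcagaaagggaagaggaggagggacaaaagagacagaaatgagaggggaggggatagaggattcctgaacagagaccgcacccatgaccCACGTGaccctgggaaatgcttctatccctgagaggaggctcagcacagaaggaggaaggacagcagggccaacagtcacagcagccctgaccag
FXYD3 promoter, chr19:35117750-35118049, plus strand: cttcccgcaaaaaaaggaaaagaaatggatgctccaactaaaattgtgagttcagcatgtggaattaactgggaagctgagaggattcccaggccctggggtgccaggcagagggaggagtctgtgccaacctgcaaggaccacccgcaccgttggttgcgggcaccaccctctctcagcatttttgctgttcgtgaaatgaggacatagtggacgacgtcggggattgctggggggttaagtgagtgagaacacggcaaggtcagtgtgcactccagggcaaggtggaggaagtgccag

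The CEACAM pair's promoters were identical at 230 of 308 aligned columns (74.7%), against 42.1% to 48.3% for the other pairs of the 6 promoters. Both hold CACGTG, 46 bases before the start in CEACAM5 and 45 in CEACAM6, a motif present in 7.26% of 35116 promoters of that length and added to the search after the sequences were read. CEACAM6 alone of the pair held GGGCGG (45% of promoters) and TATAAA (11.5%). No motif of the list was in the FXYD3 window, which lies inside the RefSeq span of the gene. The CDX motif (9.73% of promoters) was found in 1 of the 6 windows, that of CDX2 itself, and AGATAA (10.3%) likewise. Such matches describe letters and show no binding.

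CEACAM5 and CEACAM6 were both highest in the combined omission and lowest in methionine-free replicate 2. CEACAM5 had 14 counts (31.8 CPM) in the combined omission, 6 (9.41 CPM) without tryptophan and niacin, 9 and 4 (16.1 and 6.34 CPM) without methionine, and 23 (20.9 CPM) on normal food. CEACAM6 stood at 56.7 CPM in the combined omission, 34.5 CPM without tryptophan and niacin, 35.8 and 22.2 CPM without methionine, and 35.5 CPM on normal food. Against the methionine-free pair the combined omission gave a log2 fold change of 1.51 for CEACAM5 (SE 0.71, unadjusted p = 0.0325, adjusted p = 0.638 by edgeR) and 0.97 for CEACAM6 (SE 0.51, adjusted p = 0.676). The size of the CEACAM5 value rests on replicate 2: it was 0.97 without that library and 2.29 without replicate 1, both values without a test. Methionine-free food against normal food gave -0.92 for CEACAM5 (SE 0.65, edgeR adjusted p = 0.801), which was -0.37 without replicate 2 and -1.69 without replicate 1. The count ratio of the combined omission to the tryptophan/niacin-free library was 3.38 for CEACAM5 (1.22 to 10.7) and 1.64 for CEACAM6 (0.89 to 3.06). CEACAM5 reached the count filter in the combined-omission and normal libraries alone. Each comparison that sets one of these against another food, and the interaction, in which both enter with a plus sign, therefore favoured a higher level in them. Of the 50-base stretches of the CEACAM5 transcript, 3.26% also occur in another listed gene, and of CEACAM6 4.56%. Reads could therefore be shared between these genes to that extent, depending on the counting.

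FXYD3 and PHGR1 were lowest in the libraries whose food lacked tryptophan and niacin. FXYD3 encodes a small membrane protein that modulates the sodium pump. It stood at 97.6 CPM in the combined omission, 50.2 CPM without tryptophan and niacin, 149 and 144 CPM without methionine, and 156 CPM on normal food. Both foods that lack tryptophan and niacin were thus below the 3 libraries whose food held them, with the tryptophan/niacin-free library lowest. Its counting interval of 34.3 to 70.9 CPM met that of the combined omission (70.6 to 131 CPM) only at the edge. The combined omission's interval overlapped those of the methionine-free pair (118 to 184 and 116 to 177 CPM) and lay below that of normal food (134 to 182 CPM).

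PHGR1 encodes a small protein rich in proline, histidine and glycine that is found in gut epithelium. It had 4 counts (9.08 CPM) in the combined omission, 4 (6.27 CPM) without tryptophan and niacin, 13 and 24 (23.3 and 38.1 CPM) without methionine, and 29 (26.4 CPM) on normal food. Again the libraries from both foods without tryptophan and niacin were lowest, and their intervals (2.47 to 23.2 CPM and 1.71 to 16.1 CPM) overlapped that of methionine-free replicate 1 (12.4 to 39.8 CPM). PHGR1 passed the filter on low counts through the 3 other libraries, so a difference between these libraries was built into its being tested. FXYD3 passed it in all 5.

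Each pair of values was then set within 1 title style. Among the libraries with longer titles, the tryptophan/niacin-free library differed from the methionine-free pair by a log2 fold change of -1.54 for FXYD3 (SE 0.48, unadjusted p = 0.00121, adjusted p = 0.552) and -2.27 for PHGR1 (SE 0.77, unadjusted p = 0.00334, adjusted p = 0.795). Neither passed edgeR's test adjusted over all genes. Between the libraries with shorter titles, the combined omission had 0.624 times the FXYD3 level of normal food (0.436 to 0.876) and 0.344 times the PHGR1 level (0.0879 to 0.980), with counting error only. Across the styles, the tryptophan/niacin-free library was 3.12-fold below normal food in FXYD3 (2.13 to 4.70) and 4.20-fold in PHGR1 (1.48 to 16.5).

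An additive model, chosen after seeing these values, averaged the omission of tryptophan and niacin over food with and without methionine. It gave a log2 fold change of -1.04 for FXYD3 (SE 0.32, unadjusted p = 0.00744) and -1.89 for PHGR1 (SE 0.53, unadjusted p = 0.00374), with an adjusted p = 1 for both by edgeR. In that model 0 of 10005 genes passed in either direction, and 164 (1.64%) had an unadjusted p below 0.05. Its SEs and p-values rest on the spread of the methionine-free pair together with any departure from additive effects of the omissions. PHGR1 reached the count filter only in the methionine-free and normal libraries, so a negative value here was favoured by its being tested. Both genes were singled out for low levels in the libraries without tryptophan and niacin, so these p-values are descriptive. The same model gave 0.28 for FXYD3 (SE 0.31) and 0.28 for PHGR1 (SE 0.45) for the omission of methionine. For 7 of the other 8 genes the tryptophan/niacin value in this model lay between -0.27 and 0.51, and for CDX1 it was -0.52, with both CDX genes fitted without the filter.

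**Figure D3:**
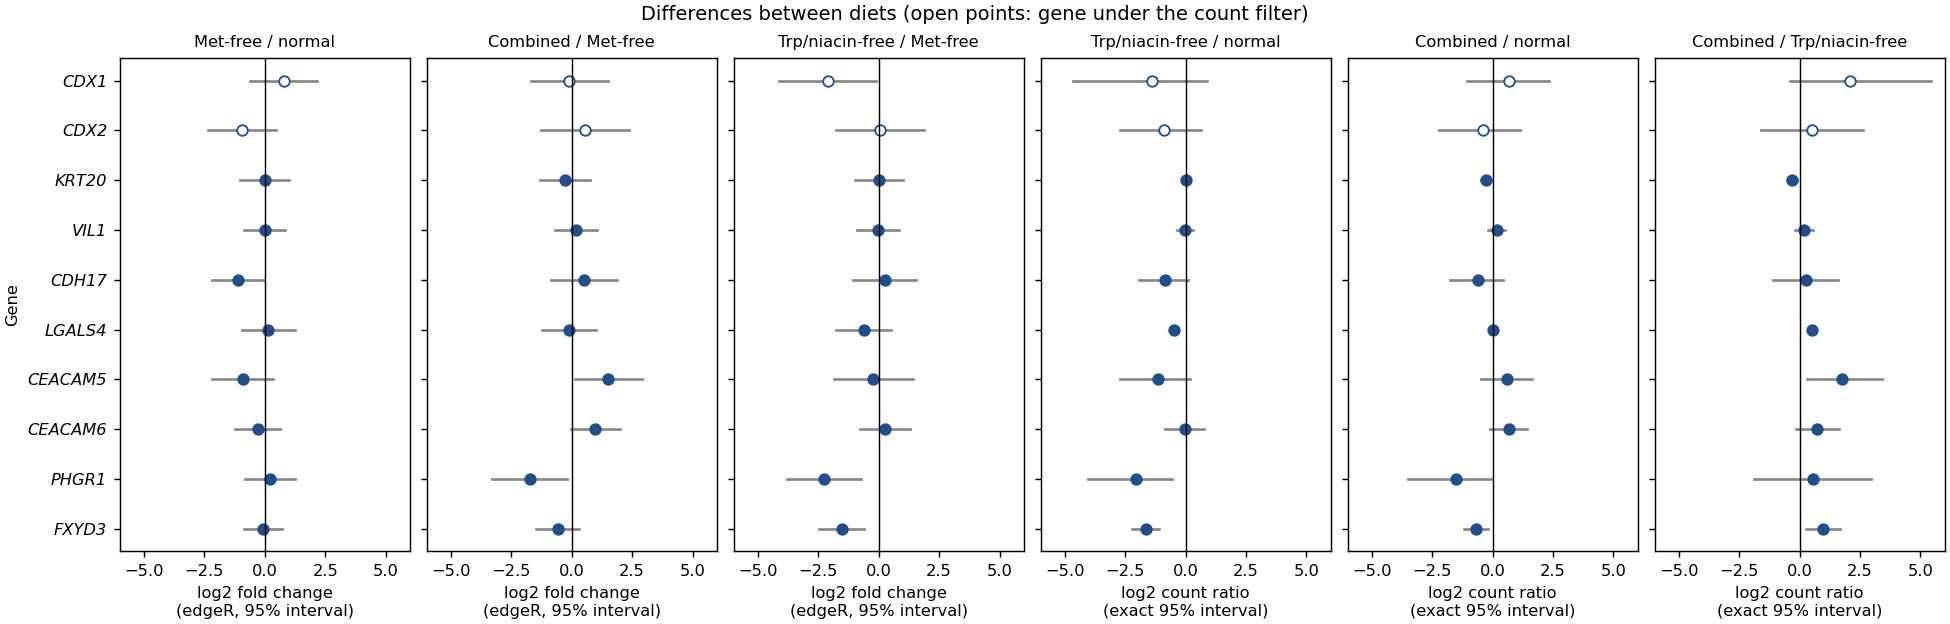
Log2 differences of the 10 genes in 6 comparisons, the first-named diet over the second. The left 3 panels show edgeR log2 fold changes with 95% intervals, the right 3 show count ratios with exact 95% intervals that cover counting error only, and open points are genes under the count filter. PHGR1 and FXYD3 lie left of 0 in the comparison of tryptophan/niacin-free with methionine-free food (-2.27 and -1.54).

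Of the 10 genes, 8 entered the tests across 10005 genes. Methionine-free against normal food called 0 of 8 members by edgeR, where 0.23% of all genes were called, and 1 member (CDH17) had an unadjusted p below 0.05, against 7.68% of all genes. The combined omission against methionine-free food called 0 of 8 (0.03% of all genes), with CEACAM5 and PHGR1 below the unadjusted threshold (7.59% of all genes). PHGR1 had a log2 fold change of -1.75 there (SE 0.79, adjusted p = 0.615), and of -1.10 with a correction for transcript length (adjusted p = 0.675). Tryptophan/niacin-free against methionine-free food called 0 of 8 and 0% of all genes, and FXYD3 and PHGR1 were below the unadjusted threshold in the lower direction, where 2.32% of all genes were (4.91% in either direction). DESeq2 and limma-voom also called 0 of the 8 in each of these. Of the genes named, CDH17, CEACAM5 and PHGR1 were kept by the filter through libraries where they were higher, which favoured these differences. On simulated counts for methionine-free against normal food (9746 genes tested) the edgeR test called 4.48% of 67 genes changed 2-fold, 71.2% of 66 changed 4-fold and 90.5% of 63 changed 8-fold. The simulation gave every gene the same spread between libraries and left out the length difference of the methionine-free pair. Its changed genes were drawn over all levels, so these shares need not hold for members with few counts, such as PHGR1 and CEACAM5.

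The interaction asks whether leaving out methionine acted differently with tryptophan and niacin absent than present. It sets the combined-omission and normal libraries, which bear the shorter titles, against the others. If title style marks a separate round of work, an interaction cannot be told apart from that round. Of the 8 members 0 passed, against 0.43% of all genes, and DESeq2 and limma-voom called 0 of them too. CEACAM5 was the member with the smallest unadjusted p (log2 value 2.65, SE 1.06, unadjusted p = 0.0127, adjusted p = 0.541), and it was the only one of the 8 below the unadjusted threshold (6.45% of all genes). The value was 3.43 without methionine-free replicate 1 and 2.11 without replicate 2, both without a test. Since CEACAM5 passed the filter through the combined-omission and normal libraries, a positive value was built into its being tested. Its methionine-free libraries were below normal food while its combined omission was above the tryptophan/niacin-free library. The median of the 8 members was 0.69, beside -0.02 over all genes, with KRT20 alone below 0 (-0.30). Since the 8 are those that passed the filter and share all their libraries, this is a description.

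Between lone libraries, a size rule replaced the test: a 2-fold difference in TMM-scaled log2 CPM together with an exact 95% interval of the count ratio that excludes 1. Tryptophan/niacin-free against normal food put 2 of 8 members beyond it in the lower direction, FXYD3 (log2 difference -1.58) and PHGR1 (-1.67), where 2.51% of all genes lay. Counting the genes under the filter, 9 of 10 were below 0, with VIL1 at -0.03 and CEACAM6 at -0.04, and KRT20 was at 0.01. Of all genes kept by the filter, 50.4% were below 0. The ratio intervals of VIL1, CDX1, CDX2, CDH17, CEACAM5 and CEACAM6 included 1. All these signs share the same pair of libraries, so they are a description. The combined omission against normal food put 1 of 8 beyond the size rule, PHGR1 (-1.28), where 1.07% of all genes were lower. There 5 of 10 members were below 0, against 51.5% of all genes. The PHGR1 interval of 0.0879 to 0.980 only just excludes 1. PHGR1 was kept by the count filter through the methionine-free and normal libraries, so its lower level in both comparisons was favoured by its being measured. The combined omission against tryptophan/niacin-free food put 1 of 8 beyond it in the higher direction, CEACAM5 (1.49), where 2.3% of all genes lay, a gene kept through its level in the combined omission and on normal food. The methionine-free replicates, set against each other, put 0 of 8 members and 6.6% of all genes beyond the rule, counted in either direction.

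Muscle myosin counts marked the tryptophan/niacin-free library. The 6 skeletal muscle markers summed to 66.1 CPM in it. They summed to 1.13 CPM in the combined omission, 2.67 and 2.38 CPM without methionine and 1.82 CPM on normal food. Nearly all of the 66.1 CPM came from the myosins MYH1, MYH2 and MYH4 (21.7, 24 and 18.8 CPM). ACTA1 was at 1.57 CPM in this library, beside 1.59 CPM in methionine-free replicate 2. TNNT3 was at 0 in this library, and CKM was at 0 in all. The summed level of the 6 goblet cell markers, which are epithelial, was also lowest there, at 885 CPM, against 1890 CPM in the combined omission, 1550 and 1826 CPM without methionine and 1524 CPM on normal food. Of the 6, TFF3, AGR2 and REG4 were lowest in this library, MUC2 and FCGBP (102 and 125 CPM here, against 36.5 and 99.9 CPM) in methionine-free replicate 2, and SPINK4 in methionine-free replicate 1 (0 CPM). The part of either in the lower levels of FXYD3, PHGR1 and LGALS4 was not tested. EPCAM, a broad epithelial surface gene, stood at 533 CPM in the combined omission, 572 CPM without tryptophan and niacin, 525 and 588 CPM without methionine and 584 CPM on normal food.

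Other differentiation genes were read from 5 lists of 68 symbols, of which 0 passed edgeR's test in any tested comparison. Of the 44 measured, 6 had an unadjusted p below 0.05 in methionine-free against normal food, 5 of them lower (7.68% of all genes in either direction). There was 1 in the combined omission against methionine-free food (7.59% of all genes), 2 in tryptophan/niacin-free against methionine-free food (4.91%) and 8 in the interaction (6.45%). By the size rule 7 of the 44 were lower without tryptophan and niacin than on normal food, where 2.51% of all genes lay. Of these 7, 4 had been kept by the count filter without reaching it in the tryptophan/niacin-free library: CDHR2 reached it on normal food alone, ANPEP in the combined omission and on normal food, FOXA2 in these and in methionine-free replicate 1, and GPA33 in all libraries but the tryptophan/niacin-free one. Their lower level there was favoured by their being measured, and the count of 7 supports nothing about the lists. MYO7B, ELF3 and CLDN3 reached the filter in all 5 libraries. Between the methionine-free replicates 2 of the 44 lay beyond the rule, CDHR5 (-1.11) and ONECUT2 (-1.18), against 6.6% of all genes in either direction.

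Brush border genes, the partners of villin in microvilli, had 10 of 12 measured above the filter. Without tryptophan and niacin 2 were lower than on normal food by the size rule, CDHR2, a protocadherin that links microvilli (2 counts against 23, ratio interval 0.0171 to 0.607), and the myosin MYO7B (-1.21), and the highest were EPS8 (0.23) and EZR (0.18). The list's median was -0.26, against -0.01 over all genes. In the combined omission 0 lay beyond the rule, with CDHR2 at -0.99, PLS1 at -0.58, USH1C at 0.30 and ANKS4B at 0.55, and in the methionine-free pair CDHR2 was at -2.26 (adjusted p = 0.464) and MYO7B at -1.21 (adjusted p = 0.298). In the interaction, which also sets the shorter title style against the longer, MYO7B had the smallest p of the list (2.40, SE 0.65, edgeR adjusted p = 0.0559).

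Genes of the mature absorptive colonocyte were mostly at or near 0. Of 19, 5 passed the filter, and CA1, CA4, AQP8, MS4A12 and SLC26A3, genes of the surface colonocyte, were among those at 0 in all 5 libraries, which allows up to 2.73 CPM on normal food and 6.81 CPM in the combined omission (3 counts). Of the 5 measured, the aminopeptidase ANPEP was lower without tryptophan and niacin than on normal food by the size rule (2 counts against 20, ratio interval 0.0196 to 0.710), and DPP4 was at -0.59, SLC9A3 at -0.54 and CEACAM1 at -0.12. In the combined omission ANPEP was at 0.00 with an interval of 0.380 to 2.37. The list's medians were 0.19 in the combined omission, -0.56 without tryptophan and niacin and -0.52 without methionine.

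Among intestinal transcription factors 9 of 12 were measured. ELF3, an epithelial factor, and FOXA2 were lower without tryptophan and niacin by the size rule (-1.10 and -1.47), while ONECUT2 (0.05) and HNF4G (0.09) were highest. The same 2 were lowest without methionine, at -0.99 for ELF3 (adjusted p = 0.576) and -1.17 for FOXA2 (adjusted p = 0.593). Simple epithelium and surface genes had 13 of 13 measured, with the tight junction gene CLDN3 (-1.11) and the colon antigen GPA33 (-1.70) lower without tryptophan and niacin by the size rule and KRT18 (0.34) and S100P (0.33) highest. Crypt base and WNT genes had 7 of 12 measured, and 0 lay beyond the rule against normal food in either lone library. SOX9, a progenitor factor, was highest in the combined omission (0.73, ratio interval 1.24 to 2.26). Their medians were 0.24 in the combined omission, 0.00 without tryptophan and niacin and -0.01 without methionine. SMOC2 and OLFM4, markers of the crypt base, were at 0 throughout, and LGR5 had at most 4 counts. Against the tryptophan/niacin-free library, which these ratios share with those above, the combined omission was higher by the size rule in 5 of the 44 (2.3% of all genes), namely MYO7B (1.14), ANPEP (1.79, ratio interval 1.15 to 55.9), CLDN3 (1.10), GPA33 (1.39) and the receptor EPHB3 (1.13). ANPEP and GPA33 are among the genes kept without reaching the filter in the tryptophan/niacin-free library.

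**Figure D4:**
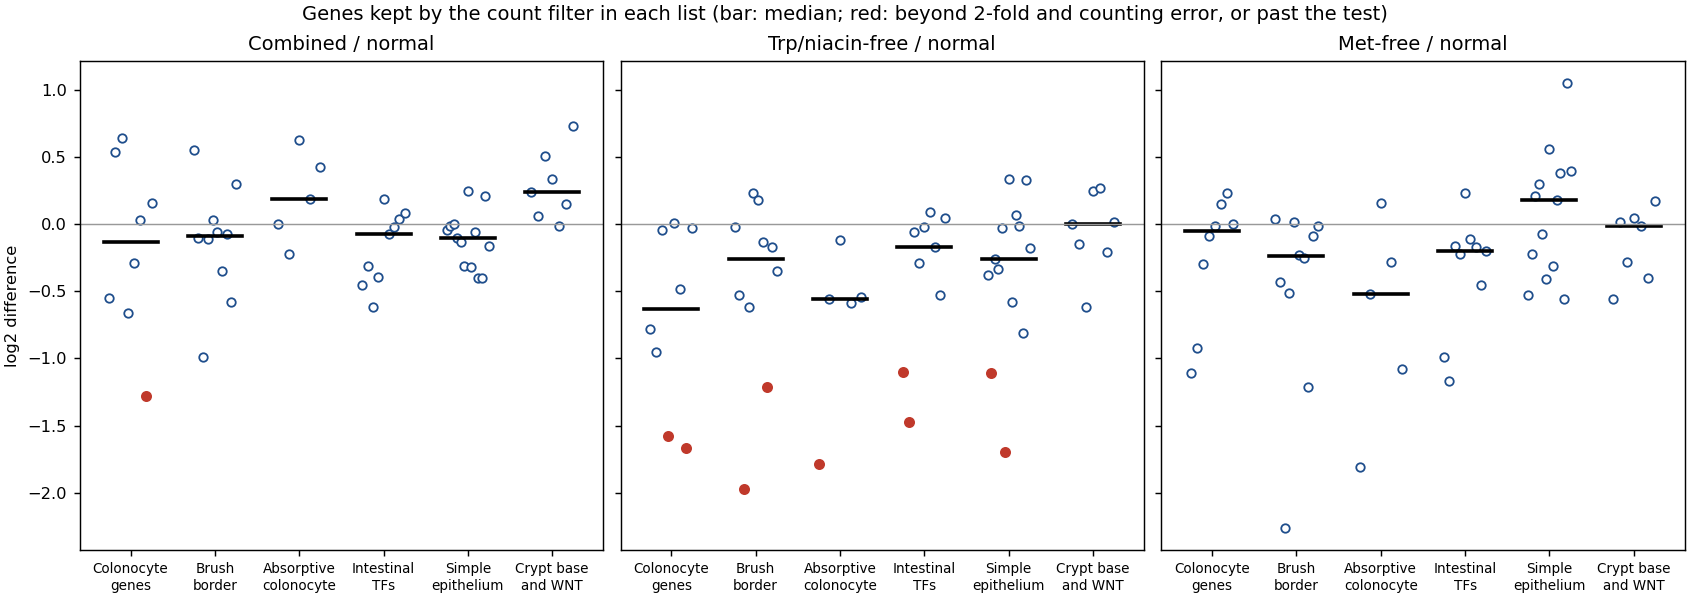
Log2 differences from normal food of the measured genes in the colonocyte set and 5 further lists, with list medians as bars. Red points lie beyond the size rule (left and middle panels) or past edgeR's test (right panel, none). The red points of the tryptophan/niacin-free panel are all below 0.

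The genes whose pattern over the 5 libraries was nearest to the mean of the 8 measured members were GARS, RASA1, VEGFB, ACSS1 and DIS3. Likeness was the Euclidean distance of centred log2 CPM among 4824 genes with a mean of at least 50 CPM, and these 5 lay at 0.133 to 0.159. The members' mean profile was 0.09 in the combined omission, -0.42 without tryptophan and niacin, 0.04 and 0.01 without methionine and 0.27 on normal food, in log2 units around 0. This mean weighs the members equally, among them PHGR1 and CEACAM5 with few counts. KRT20 (0.01) and VIL1 (-0.03) barely differed between the tryptophan/niacin-free and normal libraries. With 5 values per profile and 4824 candidates, a close match shows no link between genes.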

How the data were processed

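The authors deposited 1 file of expected counts per gene symbol for each library, estimated values that include fractions. Per the labels' protocols a stranded mRNA kit was used, and per the submitters' processing notes the tools included featureCounts, Subread 2.0.0, SAMtools 0.1.18, TopHat2 2.1.1 and Bowtie2 2.2.8, with the build hg19. How strand was set, which annotation served and whether mouse reads were separated is not given in the sources used here. Counts were rounded to whole numbers. The filter filterByExpr kept 10005 of 26364 genes, among them 8 of the 10 members. Tests used edgeR 4.0.16 (quasi-likelihood, TMM, Benjamini-Hochberg over all genes, threshold 0.05) with limma 3.58.1, in R 4.3.3, with 1 mean per diet. That leaves 1 residual degree of freedom, and each lone library is assumed to vary like the methionine-free pair (biological coefficient of variation 0.207). The prior degrees of freedom were estimated as infinite. The spread was thus pooled over genes and treated as known, and a gene's own pair did not set its SE. The additive model, with 1 term per omission, had 2 residual degrees of freedom and a coefficient of 0.227. DESeq2 1.42.0 was an alternative. Intervals of log2 fold changes are normal approximations from the SE. Counting intervals cover counting error only, at the 95% level. Members, lists and tests were chosen with earlier results of these data known. All 10 members are named. From the lists, genes past the test and the 2 lowest and 2 highest of a comparison are named. Others (genes at 0, EPCAM, HNF4A, LGR5) were named after their values were seen. Alternatives were other scalings, no filter, DESeq2, limma-voom, a length correction and left-out libraries. Transcript lengths came from GENCODE 29. The test was tested on simulated data.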

Additional observations from a re-analysis of the deposited data

How the results depend on the processing

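No count of members called changed under any alternative run: other size factors, total-count scaling, no filter, DESeq2, limma-voom, a transcript length correction, another prior count, or leaving out a diet not compared. Leaving out either methionine-free library leaves no residual degrees of freedom and gives values without a test. The sign of some members then depended on which was left out. Without replicate 1 and without replicate 2, methionine-free against normal food gave 0.20 and -0.25 for KRT20 and -0.16 and 0.14 for VIL1. LGALS4 was at 0.37 and -0.11, PHGR1 at 0.53 and -0.18, and CEACAM6 at -0.67 and 0.01. Signs also turned for KRT20, VIL1, CEACAM5 and CEACAM6 in tryptophan/niacin-free against methionine-free food. The length correction turned the sign of VIL1 (0.23), LGALS4 (-0.13) and PHGR1 (-0.44) in methionine-free against normal food, of VIL1 (-0.06) and LGALS4 (0.19) in the combined omission against methionine-free food, of VIL1 in the interaction (-0.04), and of PHGR1 (-0.27, methionine) and VIL1 (-0.05, tryptophan/niacin) in the additive model. Total-count scaling turned VIL1 to 0.07 in tryptophan/niacin-free against methionine-free food. None of these was called, and the cause was not tested. The length correction also moved the members' median in methionine-free against normal food to -0.37, beside -0.05 without it, and in the interaction to 1.02, beside 0.69. In tryptophan/niacin-free against methionine-free food it gave -1.25 for FXYD3 and -1.64 for PHGR1. Over all genes, edgeR called 23, 3, 0 and 43 in methionine-free against normal food, the combined omission against methionine-free food, tryptophan/niacin-free against methionine-free food, and the interaction. DESeq2 called 1, 0, 0 and 2, and the second count was 9 by limma-voom, 6 by total-count scaling, 1 with the length correction and 2 without the tryptophan/niacin-free library. No paired analysis was possible because the labels give no replicate numbers that the diets share. At totals of 433930 to 1088084 counts the 3-count floor was 2.73 to 6.81 CPM, so that CDX1, CDX2, CEACAM5 and PHGR1 carry wide intervals.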
